A study of Rattus norvegicus with 12 samples.

Results

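RNA of the rat sciatic nerve was set against RNA of dorsal root ganglia (DRG) and of the dorsal side of the spinal cord on single-colour Agilent arrays. Each value is the log2 of a probe's fluorescence after quantile normalisation, and a higher value means more labelled RNA on that probe. The nerve arrays were those whose titles carry the left or the right nerve, and they are 4 of the 12 arrays of the study, with 4 arrays of DRG and 4 of cord as the comparison. Each array held RNA pooled from 3 female rats, according to the sample labels. In each tissue, 2 arrays came from athymic nude rats (Hsd:RH-Foxn1rnu), which lack a functional thymus and mature T cells, and 2 from Sprague-Dawley rats, called wild-type here. The nude rats were 8 weeks old and sampled at day 7, and the wild-type rats were 8 weeks old and sampled at day 12. The study's methods describe the wild-type animals differently, as heterozygous controls of the nude strain, with the same sampling time for both rat types, and the labels are followed here, so what separates the rat types is uncertain. Of the 2 nerve arrays of a rat type, 1 held the left nerve, injected with MBP84-104 (50 μg in 5 μL), a peptide of myelin basic protein, and 1 the right nerve, which received PBS. The DRG arrays held the left and the right ganglia, and the cord arrays the left dorsal part of the lumbar enlargement and of the cord above it. The labels name no array of an uninjected animal. Pools of 1 rat type may share animals across tissues and sides, and the p-values therefore measure the spread between these arrays.

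A peripheral nerve contains the axons of sensory, motor and autonomic neurons, but not their cell bodies, so most messenger RNA of a nerve comes from its resident cells. Schwann cells wrap the larger axons in myelin. Fibroblasts, perineurial cells, vessels, macrophages and mast cells fill the endoneurium, the perineurium and the epineurium around them, and fat surrounds and enters the epineurium. The DRG hold the cell bodies of sensory neurons with their satellite glia and also Schwann cells, whereas myelin of the cord is made by oligodendrocytes. In these pooled tissues, fewer cells of a type and less RNA per cell cannot be told apart.

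The 4 nerve arrays did not all scan alike. The median spot signal was 23.5 on the injected nude nerve, the lowest of the 12 arrays, and 53.8 to 83.9 on the other nerve arrays. DRG and cord arrays had medians of 30.0 to 122. Slide 1 carried all 6 nude arrays and both nerve arrays of wild-type rats, and slide 2 the wild-type DRG and cord. Among wild-type arrays slide and tissue cannot be told apart, whereas the nude arrays compare the tissues within a slide. Across the 15153 named genes, nerve arrays correlated with each other at Pearson r of 0.970 to 0.989, DRG arrays at 0.986 to 0.994 and cord arrays at 0.991 to 0.994. Nerve correlated with DRG at 0.925 to 0.945 and with cord at 0.848 to 0.890. These are descriptions across genes, which are not independent replicates.

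Prx and Pmp2, which mark the myelinating Schwann cell, were higher in nerve than in cord and were not called against the DRG. Prx, which encodes periaxin, a scaffold that links Schwann cell myelin to the basal lamina, had log2 signals of 10.04, 11.44, 10.14 and 11.33 on the nerve arrays. This order, nude injected, nude control, wild-type injected and wild-type control, is kept below, with lumbar cord and the cord above it in the places of injected and control. The DRG values of Prx were 9.39, 9.59, 10.88 and 11.09, and those of the cord were 7.90, 5.32, 8.08 and 4.98. Nerve and DRG overlapped, and all 4 cord arrays lay below all 4 nerve arrays. The nerve was above the cord by 4.17 (SE 0.72, adjusted p = 0.000286) and differed from the DRG by 0.50 (SE 0.72, adjusted p = 0.616).

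Pmp2, the myelin P2 protein, a fatty acid-binding protein of peripheral myelin, also lay above the cord. Its nerve values were 13.04, 14.32, 13.19 and 14.45, its DRG values 13.40, 13.33, 14.47 and 14.54 and its cord values 11.21, 8.11, 11.63 and 8.67. Nerve minus cord was 3.84 (SE 0.73, adjusted p = 0.000571), and nerve minus DRG was -0.19 (SE 0.73, adjusted p = 0.861). For both genes the 2 lumbar cord arrays stood well above the 2 arrays of the cord above the enlargement. Against the lumbar cord arrays the injected nerve arrays were higher by 2.10 for Prx and 1.69 for Pmp2, and on the control arrays the differences were 6.24 and 5.99. How much nerve root the lumbar samples contained was not tested.

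**Figure D1:**
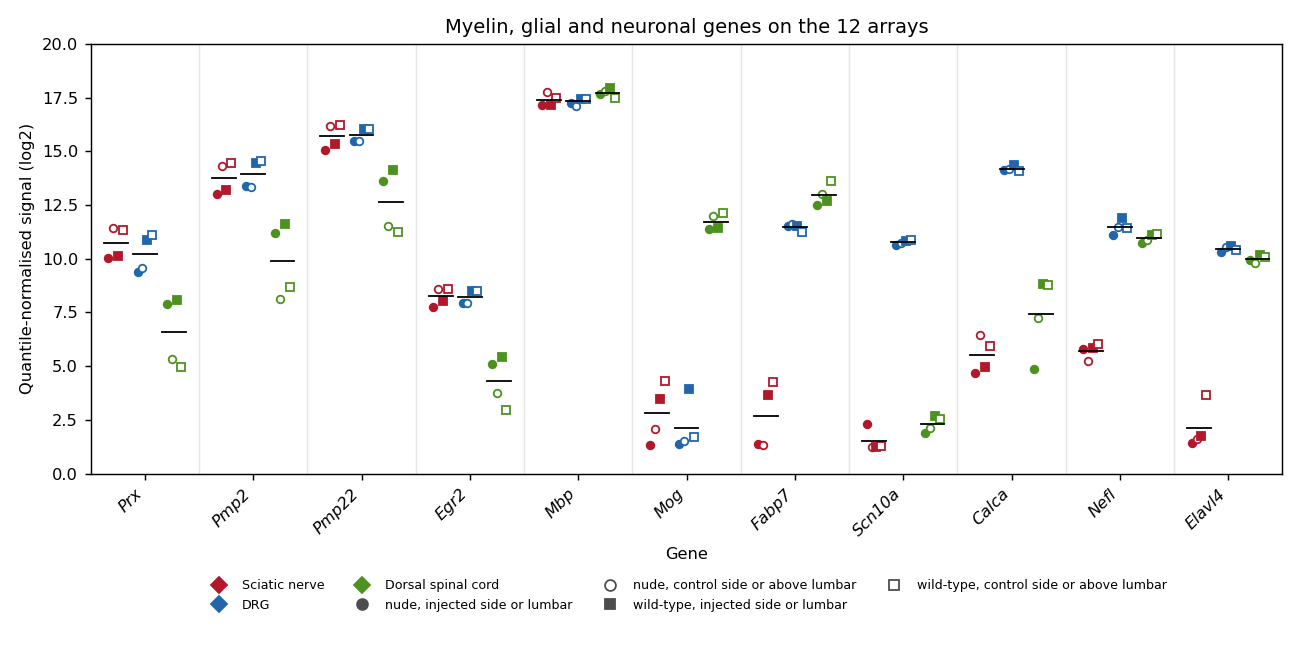
Quantile-normalised log2 signal of 11 genes on the 12 arrays. Red, blue and green points are sciatic nerve, DRG and dorsal cord, circles are nude and squares wild-type rats, filled points are the injected side or lumbar cord, open points the control side or the cord above it, and black bars are means of 4 arrays. Prx, Pmp2, Pmp22 and Egr2 overlap between nerve and DRG and lie below them in the cord, whereas Scn10a, Calca, Nefl and Elavl4 lie far above the nerve in the DRG.

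A gene was called where the moderated test of limma gave a Benjamini-Hochberg adjusted p under 0.05 over 21433 probes and the difference was at least 2-fold. Of 11438 genes tested, 1075 were higher (9.40%) and 1156 lower (10.1%) in nerve than in DRG. Against the cord 2177 were higher (19.0%) and 2405 lower (21.0%). Called in the same direction against both tissues were 806 genes higher (7.05%) and 880 genes lower (7.69%) in nerve, named nerve-high and nerve-low genes below. A further 1336 genes were higher than in the cord with no call against the DRG, and 226 were higher than in the DRG with no call against the cord. The median difference over all genes was 0.09 against the DRG and 0.01 against the cord on the log2 scale. Within nude arrays alone 616 genes were nerve-high, 556 of them among the 806, and within wild-type arrays 728, 645 of them among the 806.

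**Figure D2:**
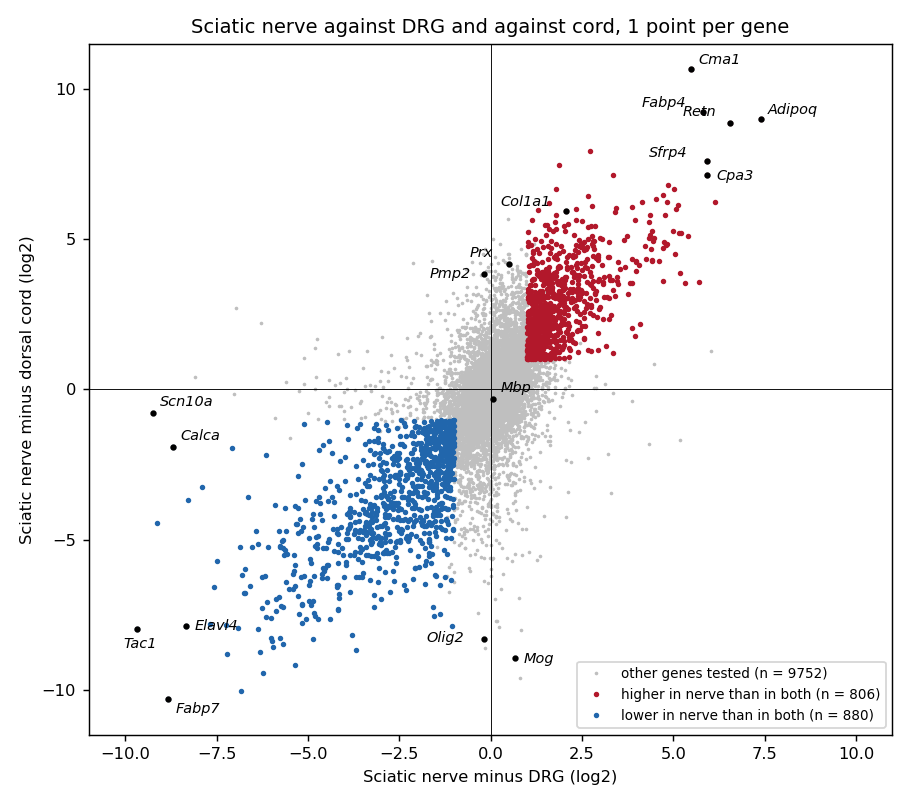
Difference of sciatic nerve from DRG (horizontal axis, log2) against its difference from dorsal cord (vertical axis, log2) for each gene tested. Red points are the 806 genes higher and blue points the 880 genes lower in nerve than in both tissues, with labelled genes drawn in black. Adipoq, Retn, Fabp4, Cma1 and Cpa3 lie at the upper right, and Prx and Pmp2 lie near the vertical axis, above the cord and level with the DRG.

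The nerve-high genes were ranked by the smaller of their 2 differences, and Adipoq, which encodes adiponectin, a hormone of fat cells, came first. Its values were 9.03, 11.69, 8.86 and 11.70 in nerve, 5.50, 1.33, 3.55 and 1.31 in DRG and 1.33, 1.35, 1.30 and 1.33 in cord. It was well above background on all 4 nerve arrays, on 2 DRG arrays, both of the injected side, and on no cord array. The difference from the DRG was 7.40 (SE 0.92, adjusted p = 5.34e-05). Against the cord the nerve was at least 266-fold brighter (adjusted p = 3.31e-06). Such a bound divides the mean of the bright tissue by the weakest signal that counts as well above background on each array of the other. Where the probe's own value was higher, that value was used. The bound stands wherever no array of the other tissue measured the probe. It is approximate, because the weakest signal is taken over all probes of an array while the flag is set per spot.

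Retn, which encodes resistin, another fat-derived hormone in rodents, followed. The nerve values were 9.58, 11.90, 9.71 and 11.79, with 3 of 4 DRG arrays and 1 of 4 cord arrays well above background. The difference was 6.54 (SE 0.80, adjusted p = 4.50e-05) from the DRG. Fabp4, the fatty acid carrier of adipocytes, had nerve values of 10.25, 11.93, 10.24 and 11.64 and DRG values of 5.55, 4.76, 5.32 and 5.21. It was 5.80 (SE 0.41, adjusted p = 4.68e-07) above the DRG and at least 410-fold above the cord (adjusted p = 2.77e-09). Cfd, encoding adipsin (complement factor D), was bright on every nerve array, at 13.14, 13.72, 13.46 and 14.14, and exceeded the DRG by 4.54 (SE 0.23, adjusted p = 2.37e-08).

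An adipocyte list had a median difference of 0.94 from the DRG and 0.85 from the cord. Of its 16 tested genes 6 were nerve-high and none nerve-low, against 7.05% and 7.69% of all tested genes. The other 2 were Lpl, the lipoprotein lipase, with nerve values of 8.22, 9.80, 8.01 and 9.47, and Pparg, the transcription factor of fat cell differentiation, with 8.40, 9.81, 8.32 and 9.85. Scd, a fatty acid desaturase, had nerve values of 9.15, 12.93, 8.93 and 11.07 and differed from the DRG by -0.25 (SE 0.72, adjusted p = 0.811). Its difference from the DRG was 1.23 on control arrays and -1.73 on injected arrays, and from the cord 0.64 on control arrays and -1.17 on injected and lumbar arrays, and both injected-side differences were called. In 15 of the 16 genes both control nerve arrays lay above both injected nerve arrays, a pattern that 34.8% of all tested genes had. The summed linear signal of the 21 adipocyte genes on the array was 14567.8 and 16905.7 on the injected nerves and 39823.9 and 36626.3 on the control nerves, against 5550.0 to 6039.6 in DRG and 5403.2 to 8459.1 in cord. The part of fat tissue in the nerve samples was not tested. On control arrays alone 8 of the 16 genes were nerve-high.

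Of 11 mast cell genes tested, 9 were nerve-high, against 7.05% of all tested genes. The list had a median difference of 4.43 from the DRG and 5.57 from the cord. With normexp background correction, and an offset of 50 added to every corrected signal, the medians were 1.96 and 1.91, and 9 genes were nerve-high. What part of this change came from the offset was not tested. Cma1, the chymase stored in mast cell granules, had values of 12.16, 12.38, 12.84 and 12.46 in nerve, 6.69, 7.13, 7.00 and 7.05 in DRG and 2.20, 1.42, 1.41 and 2.13 in cord. The 3 tissues did not overlap. The nerve was 5.49 (SE 0.21, adjusted p = 3.28e-09) above the DRG and at least 1146-fold above the cord (adjusted p = 1.13e-11). Cpa3, the mast cell carboxypeptidase, had nerve values of 9.79, 10.07, 10.24 and 10.01, with an SD of 0.18, and exceeded the DRG by 5.93 (SE 0.55, adjusted p = 4.67e-06).

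Tpsab1 and Tpsb2, mast cell tryptases whose close sequences the probes may not tell apart, had nerve values of 9.67, 9.28, 9.98 and 9.05 and 8.13, 8.16, 8.43 and 7.87. Mcpt1, a mast cell protease, had 8.63, 8.15, 8.60 and 7.96. Ms4a2, a chain of the high-affinity IgE receptor, had 5.11, 6.72, 6.16 and 6.58 and was well above background on 1 DRG array and no cord array. The members without a call were Kit, the receptor for stem cell factor, with a difference of -0.54 (SE 0.36, adjusted p = 0.257) from the DRG, and Gata2, a transcription factor of mast cells and other blood lineages, with 0.99 (SE 0.24, adjusted p = 0.00574). The summed signal of the 11 genes was 7481.5 to 11037.0 in nerve, 285.6 to 336.4 in DRG and 108.7 to 135.1 in cord. Of the 11, 9 were called nerve-high within nude arrays, within wild-type arrays and on control arrays as well.

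**Figure D3:**
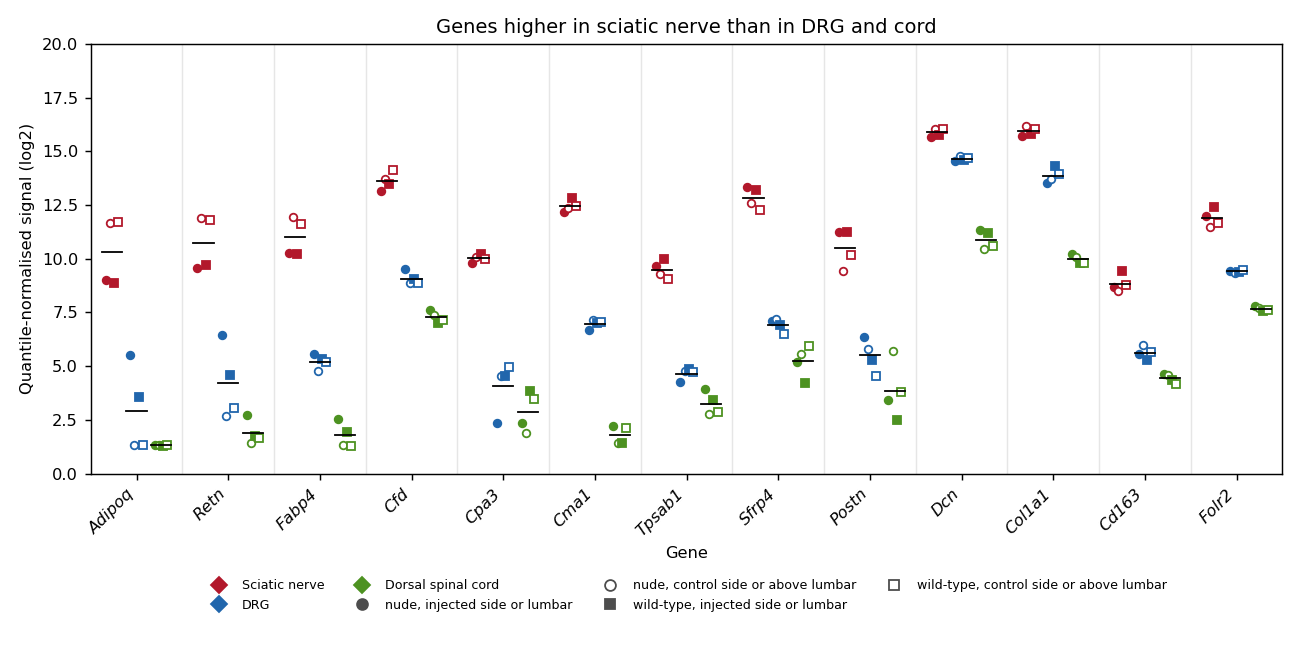
Quantile-normalised log2 signal of 13 nerve-high genes of fat, mast cells, connective tissue and macrophages on the 12 arrays, drawn with the same colours and symbols as the plot of myelin and neuronal genes. All 4 nerve points of each gene lie above all DRG and cord points. Adipoq, Retn and Fabp4 have open nerve points (control side) above the filled ones, while the nerve points of Cpa3 and Cma1 stay together.

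The promoters of a myelin gene shared with the DRG (Prx) and of 3 nerve-high genes (Adipoq, Cma1, Cpa3) are shown to give these groups a sequence. They are the 250 bases before the annotated start in RefSeq (GRCr8), 5′ to 3′ on the gene's strand. The gene starts of Prx, Adipoq, Cma1 and Cpa3 follow chr1:91914171-91914420 (plus strand), chr11:91240170-91240419 (minus strand), chr15:33390134-33390383 (minus strand) and chr2:104673238-104673487 (minus strand), respectively. Capitals mark the 6 letters AGATAA, a form of the GATA factor motif, and TATAAA, the TATA box, searched on both strands.
Prx: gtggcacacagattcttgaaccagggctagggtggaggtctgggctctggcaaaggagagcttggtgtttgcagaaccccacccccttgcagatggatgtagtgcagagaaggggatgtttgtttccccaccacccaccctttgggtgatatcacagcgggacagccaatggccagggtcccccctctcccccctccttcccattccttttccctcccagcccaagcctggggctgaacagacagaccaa
Adipoq: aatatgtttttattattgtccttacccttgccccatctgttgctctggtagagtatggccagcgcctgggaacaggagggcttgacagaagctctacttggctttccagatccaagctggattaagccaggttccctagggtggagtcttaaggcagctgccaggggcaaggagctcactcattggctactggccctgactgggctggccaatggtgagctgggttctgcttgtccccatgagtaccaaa
Cma1: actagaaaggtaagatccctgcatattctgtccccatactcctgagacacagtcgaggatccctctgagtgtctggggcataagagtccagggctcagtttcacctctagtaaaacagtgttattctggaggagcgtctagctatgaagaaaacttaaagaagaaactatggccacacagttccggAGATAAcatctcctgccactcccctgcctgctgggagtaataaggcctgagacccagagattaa
Cpa3: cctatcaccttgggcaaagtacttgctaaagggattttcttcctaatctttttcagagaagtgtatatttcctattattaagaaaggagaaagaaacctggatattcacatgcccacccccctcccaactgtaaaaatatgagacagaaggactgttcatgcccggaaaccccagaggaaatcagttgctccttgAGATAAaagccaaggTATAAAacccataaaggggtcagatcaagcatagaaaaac
AGATAA stood in the Cma1 window 64 to 59 bases before the start and in the Cpa3 window 55 to 50 bases before it, and TATAAA stood in the Cpa3 window. Neither was found in the Prx and Adipoq windows. Of 33469 promoter windows of this length, 10.3% held AGATAA and 12.9% TATAAA. Of the 9 windows matched to the 11 mast cell genes, 3 held AGATAA and 3 held TATAAA. Of the 806 nerve-high genes 621 windows were matched, and 7.73% held AGATAA and 13.5% TATAAA, against 6.45% and 8.08% of the 9790 windows of tested genes. A match describes the letters and is not a bound site.

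Connective tissue made up the broadest group. Of 15 genes of nerve fibroblasts 12 were nerve-high, of 12 collagen genes 8, of 10 small leucine-rich proteoglycans 8, and of 15 genes of elastic fibres and collagen crosslinking 8, against 7.05% of all genes. The lists share members, such as Dcn and Lum. In the same order, median differences were 2.01, 1.27, 1.52 and 1.26 from the DRG. They were 3.34, 4.37, 3.31 and 3.00 from the cord. Within nude arrays alone, 7 of the 15 fibroblast genes and 5 of the 10 proteoglycans were nerve-high.

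Sfrp4, a secreted Wnt antagonist, led the fibroblast genes. Its nerve values were 13.32, 12.59, 13.21 and 12.25, its DRG values 7.09, 7.18, 6.93 and 6.49 and its cord values 5.20, 5.56, 4.24 and 5.96, with no overlap between tissues. It was 5.92 (SE 0.35, adjusted p = 9.35e-08) above the DRG and 7.60 (SE 0.35, adjusted p = 3.46e-09) above the cord. Sfrp2, of the same family, had nerve values of 9.01, 9.10, 9.38 and 9.08 and exceeded the DRG by 3.73 (SE 0.30, adjusted p = 1.27e-06). Ccl11, the chemokine eotaxin, had 9.99, 11.53, 9.83 and 10.78 and stood further from the cord, by 7.95 (SE 0.51, adjusted p = 5.86e-08), than from the DRG, by 2.71 (SE 0.51, adjusted p = 0.00119).

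Fibrillar collagens were among the brightest probes of the nerve. Col1a1, a chain of type I collagen, had nerve values of 15.73, 16.16, 15.79 and 16.04 and DRG values of 13.53, 13.69, 14.30 and 13.94, and differed by 2.06 (SE 0.18, adjusted p = 2.77e-06) from the DRG and 5.94 (SE 0.18, adjusted p = 1.73e-10) from the cord. Col1a2, the partner chain, had 16.24, 16.18, 16.18 and 16.20 in nerve, an SD of only 0.03, and lay 1.12 (SE 0.17, adjusted p = 0.000202) above the DRG. Col3a1, of type III collagen, had 16.55, 15.98, 16.59 and 15.97. Col4a1, the basement membrane chain, differed by 0.47 (SE 0.21, adjusted p = 0.0986) from the DRG and 4.49 (SE 0.21, adjusted p = 4.45e-09) from the cord, and none of the 7 tested basement membrane genes was nerve-high. The proteoglycan Aspn (asporin) had nerve values of 11.49, 10.15, 11.29 and 10.29 and exceeded the DRG by 4.35 (SE 0.45, adjusted p = 1.28e-05).

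Dcn (decorin) had 15.67, 16.03, 15.78 and 16.04 and was 1.22 (SE 0.19, adjusted p = 0.0003) above the DRG. Chad (chondroadherin), on the same list, ran the other way. It was not well above background on any nerve array, and DRG and cord were at least 3.35-fold and 5.86-fold brighter. Of the elastic fibre genes, Mfap5, a microfibril glycoprotein, had nerve values of 15.88, 15.70, 15.62 and 15.37, and Loxl2, an enzyme that crosslinks collagen and elastin, 11.09, 10.10, 10.22 and 10.04. Fbn1 (fibrillin) exceeded the DRG by 2.35 (SE 0.17, adjusted p = 5.35e-07).

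Postn (periostin), a matricellular protein outside the lists, had 11.22, 9.43, 11.24 and 10.16 in nerve, against 6.34, 5.81, 5.29 and 4.56 in DRG. It was 5.02 (SE 0.64, adjusted p = 6.70e-05) above the DRG and 6.66 (SE 0.64, adjusted p = 1.95e-06) above the cord. Both injected nerves were above both control nerves. Fndc1, a fibronectin-domain gene, was steadier at 7.28, 7.11, 7.21 and 7.09, and at least 22.7-fold above the DRG, in which no array measured it. Among mesenchymal transcription factors 4 of 13 were nerve-high, Prrx1, Meox2, Osr2 and Snai2, against 7.05% of all tested genes. Within nude arrays 2 of the 13 were nerve-high. Scx (scleraxis), a transcription factor of tendon, was nerve-low, at -1.10 (SE 0.26, adjusted p = 0.00482) from the DRG and -1.90 (SE 0.26, adjusted p = 3.85e-05) from the cord, and its call against the DRG was lost without the injected nude nerve (-0.85). Meox2 values were 9.83, 9.96, 9.94 and 9.81 in nerve and 8.82, 8.67, 8.45 and 8.37 in DRG. Twist1 missed the 2-fold threshold against the DRG, at 0.61 (SE 0.19, adjusted p = 0.0226).

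Of 16 macrophage genes 12 were nerve-high, against 7.05% of all tested genes. The list had median differences of 1.99 from the DRG and 3.40 from the cord. Cd163, the haemoglobin scavenger receptor of tissue macrophages, had values of 8.66, 8.48, 9.45 and 8.77 in nerve, 5.58, 5.97, 5.27 and 5.64 in DRG and 4.64, 4.57, 4.36 and 4.18 in cord. The groups did not overlap, and the difference was 3.23 (SE 0.21, adjusted p = 2.52e-07) from the DRG and 4.41 (SE 0.21, adjusted p = 5.28e-09) from the cord. Cd14, a receptor for bacterial lipopolysaccharide, had nerve values of 10.31, 9.70, 11.02 and 9.74, and F13a1, a transglutaminase of macrophages, 7.64, 8.62, 7.79 and 8.68. Lyve1, the hyaluronan receptor of lymphatic vessels and perivascular macrophages, had 8.63, 9.68, 8.92 and 9.60.

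Csf1r, the growth factor receptor shared by macrophages and microglia, was 0.90 (SE 0.14, adjusted p = 0.000308) above the DRG and 0.98 (SE 0.14, adjusted p = 6.37e-05) above the cord, under 2-fold in both. Aif1, a macrophage and microglial protein, differed by 0.85 (SE 0.16, adjusted p = 0.00125) from the DRG and 1.07 (SE 0.16, adjusted p = 9.02e-05) from the cord, and the call against the cord was lost without the injected nude nerve (1.00) or the injected wild-type nerve (0.95). Csf1r passed 2-fold against the cord without the control nude nerve (1.05), the control wild-type nerve (1.03) or a wild-type cord array (1.01 and 1.04). Of 7 microglial genes only P2ry13 was nerve-high, where 7.05% of all tested genes were, and the list median was -0.02 from the cord. P2ry12 and Tmem119, which define microglia in the cord, gave 0.26 (SE 0.13, adjusted p = 0.117) and -0.01 (SE 0.19, adjusted p = 0.977) against the DRG. Against the cord P2ry12 gave -0.07. Tmem119 was above the cord by 0.84, and by 0.73 to 1.02 with 1 array left out. Of these fits, only that without the control nude nerve called it higher. Under median centring of the spot signals all 16 macrophage genes were nerve-high. That scaling also moved the median difference of all genes from the DRG from 0.09 to 0.25.

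Vessel genes split. Of 11 endothelial genes 3 were nerve-high, Pecam1, Eng and Esam, against 7.05% of all tested genes. Cldn5, a tight junction protein of barrier endothelium, gave -0.57 (SE 0.25, adjusted p = 0.0831) against the DRG. Of 13 pericyte and smooth muscle genes 5 were nerve-high, against the same 7.05%. The leading were Tagln (transgelin), at 9.97, 10.26, 10.34 and 10.44, and Abcc9, at 8.68, 8.16, 8.63 and 8.30. Abcc9 and Kcnj8 encode the 2 parts of a potassium channel of pericytes and exceeded the DRG by 2.72 (SE 0.23, adjusted p = 1.77e-06) and 2.37 (SE 0.15, adjusted p = 2.23e-07). Pdgfrb, the general pericyte receptor, did not, at 0.21 (SE 0.23, adjusted p = 0.503). Of 9 perineurial genes Cldn1, Krt19 and Msln were nerve-high, again against 7.05% of all tested genes. Slc2a1, the glucose transporter of perineurium and of barrier vessels, differed by 0.32 (SE 0.20, adjusted p = 0.231) from the DRG and 0.25 (SE 0.20, adjusted p = 0.296) from the cord.

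Several genes of the leading 25 belong to none of these groups. Akr1c3, an aldo-keto reductase, had nerve values of 8.60, 7.92, 5.58 and 7.82 and was at least 29.6-fold above the DRG and 37.2-fold above the cord. Gsc (goosecoid) and Emx2, homeobox genes of embryonic patterning, had 5.87, 7.01, 5.88 and 7.24 and 6.27, 6.56, 5.18 and 6.52, and no array of DRG or cord measured either. The trefoil peptides Tff3 and Tff1 had 7.43, 7.69, 7.63 and 7.39 and 6.38, 7.75, 6.82 and 7.22. Gys2, the glycogen synthase known from liver, had 6.55, 7.56, 6.60 and 7.02, and Mmp27, a matrix metalloproteinase, 5.46, 7.73, 5.44 and 7.66. Fcna, a ficolin that activates complement, had 8.27, 8.45, 8.71 and 9.02.

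The scanner software also flags whether a spot is well above its background. Of 15153 named genes, 8999 (59.4%) carried this flag on each of the 4 nerve arrays and 3968 (26.2%) on none of them. Of the first, 8363 were also measured on every DRG and cord array, so the tissues differed mostly in level. On all nerve arrays and no other array were 17 genes, led by Akr1c3, Gys2, Cpa1, Mmp27 and Gsc. Milr1, an inhibitory receptor of mast cells, and Ccr1, a chemokine receptor of myeloid cells, were among them. On all arrays of nerve and DRG but none of the cord were 34 genes, and on all arrays of nerve and cord but none of the DRG were 2. Not measured in nerve but on every array of both others were 152. Without the dim injected nude nerve array the 17 became 34.

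The brightest probes describe what the nerve expresses most, with the limit that probes differ in how well they bind, so their order is not an order of transcripts. Of the 100 brightest genes 54 encode ribosomal proteins, 80 were also among the 100 brightest of the DRG and 65 among those of the cord. Of the leading 20, 15 had Rpl or Rps symbols, from Rpl41 at 18.17 ± 0.16 (mean ± SD, n = 4). The others were Fth1, the ferritin heavy chain, at 17.64 ± 0.42, Mbp at 17.40 ± 0.29, Apod at 16.96 ± 0.59, Col3a1 at 16.27 ± 0.34 and Hba-a1, an α-globin, at 16.21 ± 1.58. Of the 100, 9 were nerve-high and 4 nerve-low, where 7.05% and 7.69% of all tested genes were. Among the brightest of neither other tissue were 19.

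Apod, the lipocalin apolipoprotein D, made by nerve fibroblasts, had values of 17.30, 16.45, 17.61 and 16.48 in nerve and 15.64, 15.72, 15.89 and 15.78 in DRG. It exceeded the DRG by 1.20 (SE 0.27, adjusted p = 0.00369) and the cord by 1.01 (SE 0.27, adjusted p = 0.00573). On control arrays the differences were 0.71 and 0.18, and on injected and lumbar arrays 1.695 and 1.85. Within nude arrays alone and within wild-type arrays alone Apod was called against neither tissue. The call against the cord was lost without the injected nude nerve (0.90), the injected wild-type nerve (0.80) or either lumbar cord array (0.91 and 0.89), and the call against the DRG without the injected wild-type nerve (0.99). Sparc, a collagen-binding matrix protein, and Crip1 were also nerve-high among the 100 brightest.

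Myelin genes set the nerve apart from the cord in opposite directions. All 9 tested genes of peripheral myelin were higher in nerve than in cord, against 19.0% of all tested genes, with a median of 3.84. None was higher than in DRG, against 9.40%, with a median of 0.02. Pmp22, a membrane protein of compact peripheral myelin, had 15.07, 16.19, 15.35 and 16.21 in nerve, 15.47, 15.51, 16.03 and 16.02 in DRG and 13.63, 11.55, 14.11 and 11.26 in cord, and differed by -0.05 (SE 0.57, adjusted p = 0.953) from the DRG and 3.07 (SE 0.57, adjusted p = 0.000498) from the cord. Egr2, the transcription factor of myelinating Schwann cells, gave 0.02 (SE 0.46, adjusted p = 0.975) and 3.94 (SE 0.46, adjusted p = 9.57e-06). Cdh1, the E-cadherin of Schwann cell junctions, was lower in nerve than in DRG, at -1.64 (SE 0.34, adjusted p = 0.00202). In all 9 genes both control nerves lay above both injected nerves, a pattern that 34.8% of all tested genes had.

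The intervals on these nerve and DRG comparisons were wide, with an SE of 0.57 for Pmp22 and 0.72 for Prx. The absence of a call does not show equal levels. Within rat types Prx differed from the DRG by 1.25 in nude and -0.25 in wild-type arrays.

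Of 13 genes of myelin shared by Schwann cells and oligodendrocytes, 7 were lower and 2 higher in nerve than in cord. Of all tested genes 21.0% were lower and 19.0% higher. Mbp, which encodes myelin basic protein, the parent of the injected peptide, had 17.15, 17.76, 17.18 and 17.50 in nerve, 17.27, 17.11, 17.46 and 17.46 in DRG and 17.66, 17.80, 17.96 and 17.50 in cord, and differed by 0.07 (SE 0.16, adjusted p = 0.743) from the DRG and -0.33 (SE 0.16, adjusted p = 0.0915) from the cord. Oligodendrocyte genes were lower than in the cord for 13 of 14, against 21.0% of all tested genes, with a median of -5.47. Mog, found on the outer face of central myelin, was well above background on 1 nerve array, with 1.34, 2.07, 3.47 and 4.32, against 11.38, 11.99, 11.45 and 12.11 in cord.

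Olig2, the oligodendrocyte transcription factor, was measured on no nerve array, and its signal in cord was at least 114-fold that in nerve. Genes of a general Schwann cell lineage list, which includes Sox10, Erbb3 and S100b, were not nerve-high. None of 15 was, where 7.05% of all tested genes were, and Ncam1, Gap43, Sox2 and Cdh2 were nerve-low. Which cells carried these 4 differences was not tested. Ngfr, the p75 neurotrophin receptor, was -1.73 (SE 0.34, adjusted p = 0.00163) against the DRG and 3.14 (SE 0.34, adjusted p = 5.88e-06) against the cord. Sox10, the transcription factor of Schwann cells, satellite glia and oligodendrocytes, was 9.47, 9.69, 9.24 and 9.45 in nerve and under 2-fold from either tissue.

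Of 14 pan-neuronal genes 11 were nerve-low, against 7.69% of all tested genes, with medians of -3.99 and -4.03. Of 17 genes of sensory neurons 15 were lower than in DRG, against 10.1% of all tested genes, and 7 were nerve-low. Nefl, the light neurofilament chain, had 5.81, 5.22, 5.85 and 6.03 in nerve, 11.11, 11.47, 11.89 and 11.44 in DRG and 10.73, 10.86, 11.11 and 11.13 in cord. The nerve arrays did not overlap with the others, and the differences were -5.75 (SE 0.20, adjusted p = 1.34e-09) and -5.23 (SE 0.20, adjusted p = 8.92e-10). Elavl4, a neuronal RNA-binding protein, was measured on no nerve array, and DRG and cord were at least 171-fold and 124-fold brighter.

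Scn10a, the Nav1.8 sodium channel of nociceptors, was also measured on no nerve array and was at least 240-fold brighter in DRG. Tac1, the precursor of substance P, was well above background on 3 nerve arrays and differed from the DRG by -9.67 (SE 0.65, adjusted p = 2.97e-07). Calca, which encodes the precursor of CGRP, was still well above background on all 4 nerve arrays, at 4.68, 6.44, 4.97 and 5.93, against 14.13, 14.17, 14.38 and 14.07 in DRG. Its call against the cord was lost without either injected nerve (-1.65 and -1.74), the nude cord above the enlargement (-1.99) or a wild-type cord array (-1.45 and -1.47). Prph (peripherin), Nefm and Tubb3 were likewise measured on every nerve array, at 6.33 ± 0.53, 8.46 ± 0.41 and 7.52 ± 0.27 (mean ± SD, n = 4). Of the summed linear signal of 18 sensory neuron genes, the nerve had 1036.7 to 1304.0 and the DRG 45674.4 to 51993.4.

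Among the 10 leading nerve-low genes were Fabp7, Tac1, Elavl4, Syt4, Gabrg1, Scg2, Sst, Gpr158, Slitrk3 and C8h11orf87. Fabp7, the fatty acid-binding protein of satellite glia and of astrocytes and their precursors, had 1.40, 1.34, 3.65 and 4.25 in nerve, 11.51, 11.62, 11.55 and 11.26 in DRG and 12.49, 13.04, 12.69 and 13.61 in cord. Of the nerve arrays 2 measured it, both wild-type, and the nude nerve values were not well above background. Within wild-type arrays nerve minus DRG was -7.45 and nerve minus cord -9.20. Gabrg1, a GABA-A receptor subunit, was at least 73-fold brighter in DRG and 110-fold in cord. Gpr158, an orphan receptor, was at least 47-fold and 47.7-fold brighter.

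Of 11 genes of the node of Ranvier and its flanking junctions, 6 were nerve-low, against 7.69% of all tested genes. The 6 were Scn8a, Cntn1, Cntnap1, Epb41l3, Kcna2 and Kcna1, which encode sodium and potassium channels and adhesion or scaffold proteins known from the axon. Scn8a, the nodal sodium channel, was measured on no nerve array, and the DRG was at least 13-fold brighter. Gldn (gliomedin), which Schwann cells secrete to cluster these channels, was 10.18, 10.78, 10.25 and 10.53 in nerve, differed from the DRG by -0.26 (SE 0.42, adjusted p = 0.647) and exceeded the cord by 3.82 (SE 0.42, adjusted p = 5.77e-06). The call of Kcna1 against the DRG was lost without the injected nude nerve (-0.97) or the injected wild-type nerve (-0.89).

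The fatty acid-binding proteins were spread over these classes. Fabp4 was nerve-high, Pmp2 was called against the cord but not against the DRG, and Fabp3, Fabp5 and Fabp7 were nerve-low. Fabp5, of epidermis and glia, was bright everywhere, at 13.80, 13.38, 13.68 and 13.11 in nerve and 15.56, 15.26, 15.34 and 15.34 in DRG, a difference of -1.89 (SE 0.18, adjusted p = 6.70e-06). Fabp3, the heart form, differed by -2.64 (SE 0.17, adjusted p = 1.60e-07). Of the retinoid-binding relatives, Crabp1 and Crabp2 were neither nerve-high nor nerve-low. The 5 others on the array, Fabp1, Fabp2, Fabp6, Fabp9 and Fabp12, did not pass the filter for testing and were on no nerve array well above background.

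Claudins, the strands of tight junctions, also divided by tissue. Cldn1, of the perineurial barrier, had 10.84, 11.64, 11.15 and 11.15 in nerve, 10.28, 10.43, 9.96 and 9.60 in DRG and 6.02, 5.07, 6.27 and 4.93 in cord. It exceeded the DRG by 1.13 (SE 0.31, adjusted p = 0.0115) and the cord by 5.62 (SE 0.31, adjusted p = 1.47e-08). The call against the DRG was lost without the control nude nerve (0.98) or the control wild-type DRG (0.97). Cldn22 was also nerve-high. Within nude arrays alone and within wild-type arrays alone, none of the 11 tested claudins was nerve-high. Cldn19, of Schwann cell myelin, differed from the DRG by 0.05 (SE 0.57, adjusted p = 0.952) and exceeded the cord by 3.78 (SE 0.57, adjusted p = 8.83e-05). Cldn11, of oligodendrocyte myelin, was measured on no nerve array and at least 49-fold brighter in cord.

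Of 19 neurotrophic and growth factors 3 were nerve-high and 3 nerve-low, where 7.05% and 7.69% of all tested genes were. Within nude arrays 1 was nerve-high, and with normexp background correction 1 was nerve-high and 1 nerve-low. Igf1, a survival factor for neurons and Schwann cells, had 13.91, 14.03, 13.92 and 13.66 in nerve and exceeded the DRG by 1.55 (SE 0.25, adjusted p = 0.000337). Fgf7 and Artn, the GDNF-family ligand artemin, exceeded it by 1.58 (SE 0.34, adjusted p = 0.0026) and 1.19 (SE 0.20, adjusted p = 0.000446). Cntf, the ciliary neurotrophic factor of Schwann cells, was bright, at 11.56, 12.34, 11.67 and 12.08, and differed from the DRG by 0.19 (SE 0.19, adjusted p = 0.447). Bdnf, Nrg1 and Ptn were nerve-low. Nrg1, whose axonal form controls myelination, differed by -3.18 (SE 0.53, adjusted p = 0.000509) from the DRG and was well above background on 1 nerve array.

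Haemoglobin and other red cell genes were low in nerve, with both control nerves below both injected nerves in all 6 genes tested. Of all tested genes 23.0% had this pattern. Of the 6, 5 were nerve-low, against 7.69% of all tested genes. Hba-a1 had 17.61, 14.66, 17.54 and 15.05 in nerve, 18.35, 18.13, 18.26 and 18.03 in DRG and 18.13, 17.96, 17.80 and 18.13 in cord. All 4 nerve arrays lay below all DRG and cord arrays, the control nerves further than the injected ones. Nerve minus DRG was -3.23 on control arrays and -0.73 on injected arrays. None of the 6 genes was nerve-low within nude arrays and 1 within wild-type arrays. The call of Hba-a1 against the cord was lost without the control wild-type nerve (-1.40). With 1 array left out, the call against the cord was kept in 12 of 12 fits for Hbb and Hbb-b1. It was kept in 7 for Alas2 and in 3 for Ahsp. Under both scalings of the spot signals 3 of the 6 genes were nerve-low, and 4 with normexp background correction. The share of blood in the samples was not tested.

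The 4 nerve arrays varied more among themselves than those of the other tissues. Over the 8363 genes measured on all 12 arrays, the median SD was 0.26 in nerve, 0.19 in DRG and 0.14 in cord, and 102 genes had an SD over 1 in nerve against 14 and 24. In 34.8% of tested genes both control nerves were above both injected nerves, and in 23.0% both injected nerves were above both controls. Side within the nerve was not tested here.

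Among genes measured on each of the 4 nerve arrays, Gpr15lg, a ligand of the receptor Gpr15, led with an SD of 3.03 and values of 11.65, 6.25, 8.16 and 4.61. It differed by 1.93 (SE 1.09, adjusted p = 0.179) from the DRG. Of the fits that left 1 array out, only that without the control wild-type nerve called this difference (2.95). The injected arrays alone also called it (4.30), and on control arrays the difference was -0.44. Rnase1, the secreted ribonuclease, had 7.01, 11.04, 7.06 and 10.55, and its relative Rnase1l2, whose probe may bind both, 5.07, 8.67, 4.96 and 8.45. Car3, a carbonic anhydrase abundant in fat and slow muscle, had 6.22, 9.60, 6.81 and 9.85, and Ces1d, a carboxylesterase, 6.91, 10.62, 7.11 and 10.59. All 4 were higher on both control nerves than on both injected nerves, as were 34.8% of all tested genes.

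Ptx3 (pentraxin 3) and C1qtnf3, a secreted relative of adiponectin, ran the other way, with 7.15, 5.41, 9.38 and 4.88 and 7.96, 4.70, 8.41 and 4.66. The call of C1qtnf3 against the cord was lost without the injected nude nerve (1.54), the injected wild-type nerve (1.39) or any 1 of the 4 cord arrays (1.97 to 2.16). Tnnc2, a troponin of fast muscle, was highest on the injected wild-type nerve, at 5.59, 6.57, 10.22 and 7.40. Over the 18 muscle genes the summed signal was 8188.3 on that array and 1515.4 to 2745.4 on the other nerves, against 4485.8 to 6707.5 in DRG and 8033.4 to 9454.9 in cord. Pvalb, on this list, differed by -3.50 from the DRG and -4.00 from the cord, and Tnnc2 by -3.86 from the cord. Of the 15 tested genes 6 were higher and 2 lower in nerve than in cord, where 19.0% and 21.0% of all tested genes were. How much of each sum came from muscle was not tested. None of the 15 tested muscle genes was nerve-high. Of the 20 genes of cholesterol synthesis, all had both control nerves above both injected nerves, as 34.8% of all tested genes had. Sqle, the squalene epoxidase, was the 1 nerve-low member, where 7.69% of all tested genes were nerve-low. Its call against the DRG was lost without the injected nude nerve (-0.84), the injected wild-type nerve (-0.82) or a wild-type DRG array (-0.99 and -0.97).

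The steadiest nerve-high genes were Grem1, P4ha2, Col1a2, Myl12b and Ecm1. Grem1, a BMP antagonist, had 5.97, 5.94, 5.97 and 5.96, and P4ha2, which hydroxylates collagen prolines, 8.54, 8.50, 8.50 and 8.48. Grem1 exceeded the DRG by 2.76 (SE 0.20, adjusted p = 4.85e-07), with 2 of 4 DRG arrays well above background, and P4ha2 by 1.86 (SE 0.11, adjusted p = 9.93e-08).

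**Figure D4:**
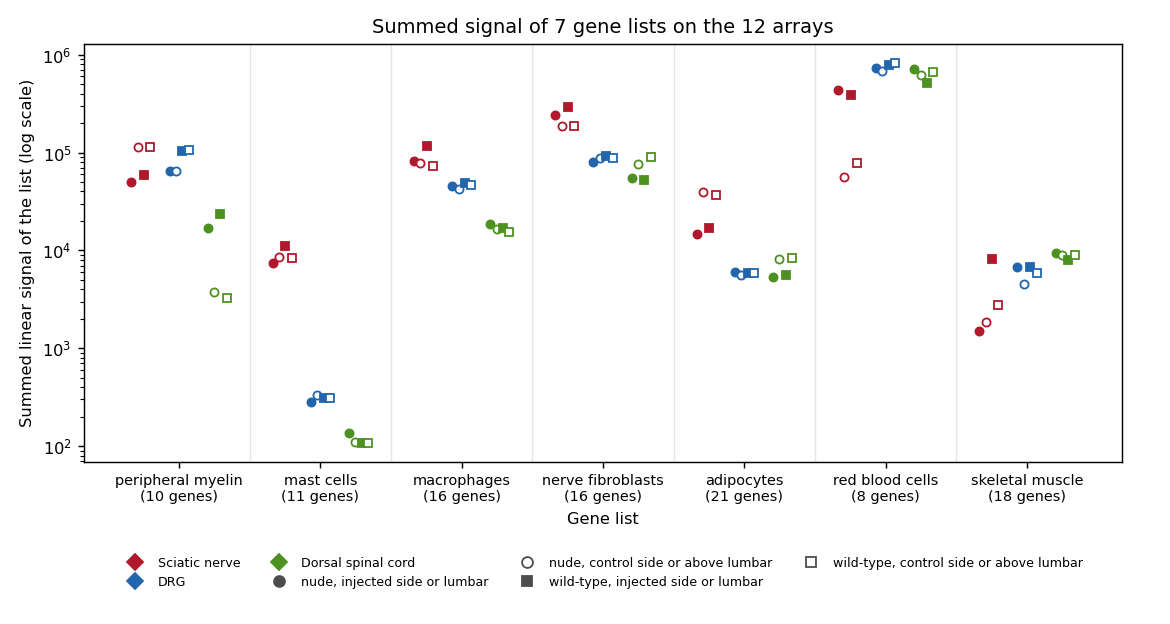
Summed linear signal of 7 gene lists on each array, on a log axis, with the same colours and symbols as the plot of myelin and neuronal genes. Mast cell genes sum to 7481.5 to 11037.0 on the nerve arrays and to at most 336.4 in the other tissues, and adipocyte, peripheral myelin and red cell genes separate the 2 control nerves from the 2 injected nerves.

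Whether the nerve difference depended on rat type was tested as an interaction. The interaction of rat type with the difference of nerve from the mean of the other tissues gave 0 genes at an adjusted p under 0.05 (limma), also with an intensity trend, with no filter and under both scalings of the spot signals, and 424 of 11438 at an unadjusted p under 0.05. The lowest adjusted p was 0.126, for Gpc5, a glypican, at -3.99 in nude and -1.73 in wild-type arrays. Within a tissue and rat type the arrays differ in side or level, and the test counts that difference as spread. The absence of a call therefore does not show the same nerve difference in both rat types. Rat type, day and, for DRG and cord, slide change together in these arrays and cannot be told apart.

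**Figure D5:**
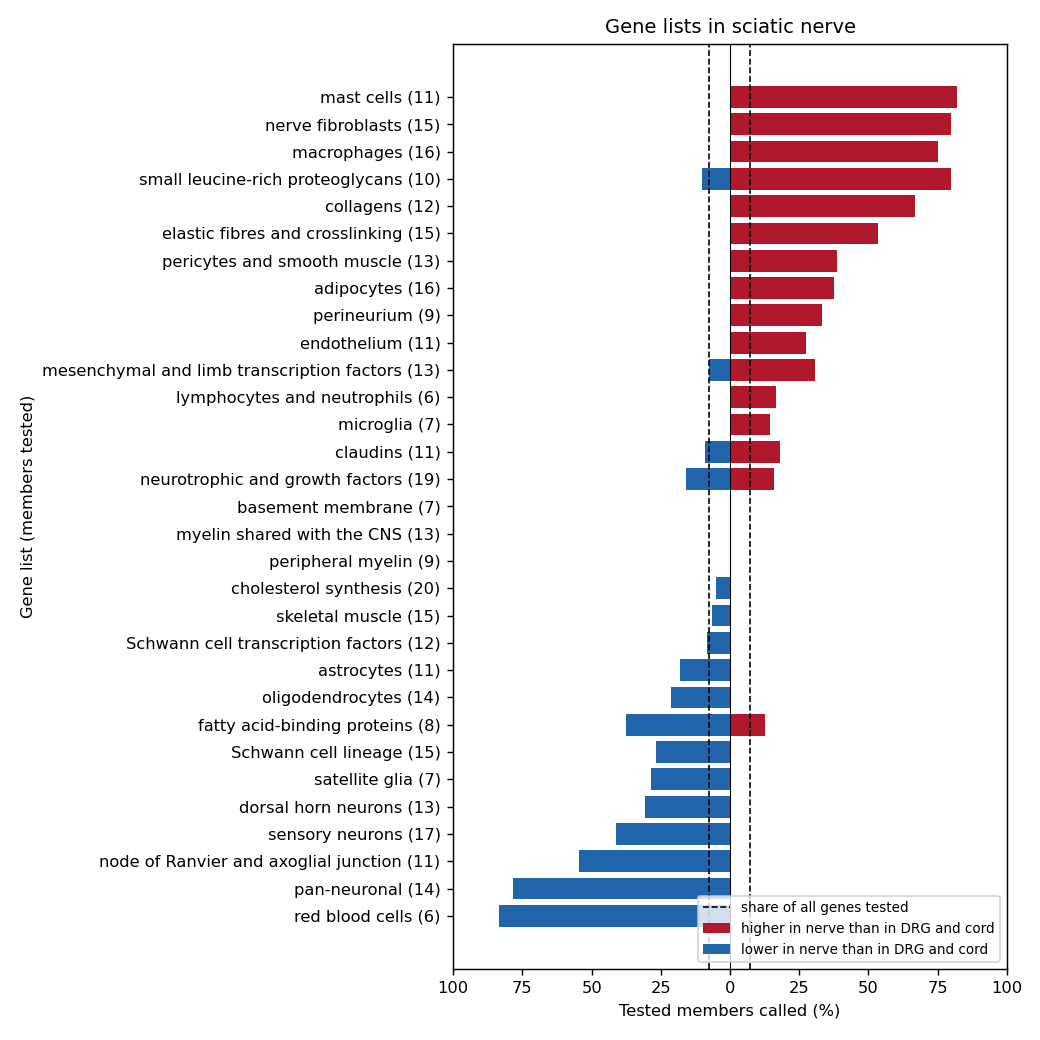
Share of the tested members of each gene list called higher (red, to the right) or lower (blue, to the left) in nerve than in both DRG and cord, in percent, with the number of members tested in brackets. Dashed lines mark the share of all 11438 genes tested, 7.05% higher and 7.69% lower. Mast cells (9 of 11), nerve fibroblasts (12 of 15), proteoglycans (8 of 10) and macrophages (12 of 16) extend furthest to the right, and red blood cells (5 of 6) and pan-neuronal genes (11 of 14) furthest to the left.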

How the data were processed

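Total RNA from 12 pools was hybridised to Agilent rat arrays, 4 each of sciatic nerve, DRG and dorsal cord. Feature Extraction gave spot intensities, already background-subtracted, as the deposited scanner files hold them; the software was version 10.7.3.1 per the file headers and 10.5 per the submitters' processing notes. The authors made the deposited log2 matrix from these signals in GeneSpring GX, and its columns are quantile normalised, with sorted values that differ by at most 0.0015. How the authors combined repeated spots was not given in the sources used here. Per the file headers the flag for "well above background" was set per spot. The rule for a probe was set here. Spots flagged as outliers were left out, and a probe carried the flag where most or an equal share of its other spots did. The number of arrays limits the precision.

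The log2 values were fitted per probe in limma 3.58.1 (R 4.3.3) with tissue as the factor, on 21433 of 30367 probes that were well above background on at least 4 of 12 arrays, and p-values were adjusted by Benjamini-Hochberg over all of them. A gene was represented by its brightest probe. Probe accessions were matched to RefSeq names for 17998 probes, and 7928 tested probes stayed unnamed. Probes of close relatives (haemoglobins, tryptases, Rnase1, Ces1d) may not separate them. The fit was tested on simulated data.

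The tissues and gene lists were chosen with earlier results of these data known. Genes were named by rule: the leading 25 nerve-high and 10 nerve-low genes, the 20 brightest, list members by size of difference, the 10 most and 5 least variable, and 2 gene families. Cdh1, Gata2 and Col4a1 were named after their values were seen. Alternatives were other scalings, background correction (normexp, offset 50), filters, probe summaries, thresholds, blocks, rat types and sides, and each array left out. A block of rat type and side, and list counts by rat type, by side, with either block and without the injected nude nerve, were added after the data were seen.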

Additional observations from a re-analysis of the deposited data

Results flagged for a closer look

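Of 221 named genes, 9 (4.07%) had 1 nerve array whose gap to the next was larger than the critical share of their range in the test of Dixon, and chance flags about 1 in 20. Of these, 5 were at or near background in nerve. The wild-type control nerve was the highest for C8h11orf87 (log2 signal 1.41), Elavl4 (3.67) and Scn8a (2.44). The nude injected nerve was the highest for Chad (3.67) and Scn10a (2.33), and it was the array with the highest floor for a measured signal. The wild-type injected nerve was the highest for Kcnj8 (9.71) and Scn11a (4.21). The nude control nerve was the lowest for Mag, a myelin adhesion protein (9.44), and the nude injected nerve the lowest for Rps12 (16.36).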

How the results depend on the processing

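No call of the named genes changed direction in any alternative. Of 12648 comparisons 12188 kept their state, called or not called, 368 lost a call and 92 gained one. Many of these genes were named for the size of their difference in these same data, which favours a kept call. With normexp background correction and its offset of 50 the counts fell to 440 higher and 604 lower than DRG, and 1182 and 1437 against the cord. Against both they were 387 and 412, all among the 806 and 880. What part of the fall came from the offset was not tested. Among genes well above background on all 12 arrays, fewer of which are tested, 606 were higher and 522 lower than DRG, 1246 lower than cord, and 490 and 362 higher and lower than both. At 4-fold the counts were 291 and 588, 992 and 1230, and 233 and 450. Leaving out a nerve array moved the genes found only in nerve between 17 and 34, the latter without the nude injected nerve. With rat type as a block 804 and 879 genes were called. With rat type and side as a block, a fit chosen after the data were seen, 806 genes were higher (803 shared) and 882 lower (877 shared), and of the named genes Ckm lost its call against the cord (adjusted p = 0.0532) and Cldn14 gained one against the DRG (adjusted p = 0.0405, limma). The labels do not say whether these sets of 3 tissues came from the same animals, and deviations from tissue means correlated between arrays of a set at -0.287 to 0.318. Dim probes limit all folds to bounds where a tissue was not measured.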
